A study of Homo sapiens with 18 samples.

Results

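The genes described here are 10 components of the Notch pathway: the receptors NOTCH1, NOTCH2 and NOTCH3, the ligands JAG1, JAG2 and DLL4, the target genes HES1, HEY1 and NRARP, and NEURL1B, which acts on the ligands. They were chosen by name with earlier results of these data known. Their shares and medians beside those of all genes are therefore descriptions and not tests. Each gene was found once among the 62703 genes of the deposited files. All 10 are accounted for in every comparison. Messenger RNA came from MDA-MB-231 cells, a cultured human line that models triple-negative breast cancer, the subtype without hormone receptors or HER2 amplification. The 18 sample records held 10 distinct libraries, because 8 records repeated another value for value, and these form 5 groups of 2. The groups Control shRNA, shEZH2 and shE2F1 were exposed to lentivirus carrying a short hairpin RNA for 24 h and selected with 2 µg/ml puromycin for 72 h, so that all of them carry a viral insertion and puromycin resistance. The hairpin was a control, or was directed at EZH2, the methyltransferase of Polycomb repressive complex PRC2, or at E2F1, a cell-cycle transcription factor. The study lists 1 hairpin sequence for each target, so that other effects of a sequence cannot be told apart from loss of its target. The other 2 groups had no virus and received DMSO or 1 µM GSK126, an inhibitor of EZH2 methyltransferase activity, for 72 h. Nothing in the labels says that the 2 libraries of a group came from separate cultures, so that p-values measure the spread between those libraries, which may be technical.

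Notch signaling passes between touching cells. A Jagged or Delta ligand on 1 cell binds a Notch receptor on its neighbour, the receptor is cut by an ADAM protease and then by the γ-secretase complex, and the freed intracellular domain joins the DNA-binding protein RBPJ and a Mastermind coactivator in the nucleus to switch on target genes. HES1 and HEY1 encode basic helix-loop-helix repressors that carry the signal on, NRARP encodes a small ankyrin repeat protein that restrains it, and NEURL1B is an E3 ubiquitin ligase of the Neuralized family, enzymes that drive ligand endocytosis in the sending cell. In breast cancer the pathway is known for JAG1 and NOTCH1 in triple-negative tumors, and DLL4 is best known in endothelium.

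Levels are given in CPM, the count of a gene relative to the total of its library after TMM scaling for composition, where only 1 gene is followed. Where genes are set side by side they are given in the deposited TPM, transcript abundances scaled by transcript length. Changes are log2 changes of edgeR with their standard error (SE). A gene was called where its Benjamini-Hochberg adjusted p was under 0.01 and its change over 2-fold, the thresholds of the study. Total expected counts ran from 13198932 (shEZH2 replicate 1) to 20055550 (DMSO replicate 1), and a count of 0 left room for 0.150 to 0.227 CPM, counting error alone. The libraries expressed VIM, CD44, AXL and MSN at 169 to 2860 TPM, whereas SPARC, also listed as a marker of the line, stayed between 0.38 and 4.26 TPM. These 5 markers summed to 2202 and 2387 TPM in shEZH2 and to between 3534 and 4382 TPM in the other groups, and the part of this in any result was not tested. Of the genes listed as low in the line, PGR was at 0 in all 10 libraries and ESR1 reached 0.17 TPM, but EPCAM ran from 12.4 to 37.7 TPM and GATA3 from 5.86 to 13.8 TPM. KRT8, on the luminal list, ran from 1126 to 1470 TPM. The 5 endothelial markers summed to between 1.40 and 4.37 TPM. The 5 fibroblast and mural markers summed to 25.3 and 34.9 TPM in shEZH2 and to between 7.52 and 11.5 TPM elsewhere, with DCN at 0 throughout, and their part in any result was not tested. In these bulk samples fewer cells that express a gene and less RNA per cell cannot be told apart.

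The hairpins lowered their targets. EZH2 stood at 153 and 181 CPM in Control shRNA and at 52.6 and 44.8 CPM in shEZH2, a change of -1.79 ± 0.12 (SE), and E2F1 stood at 143 and 138 CPM against 26.0 and 22.5 CPM in shE2F1, a change of -2.54 ± 0.24 (SE). E2F1 was also lower in shEZH2, at 62.4 and 32.3 CPM, so that the Notch genes of the shEZH2 libraries were measured in cells with less of both transcripts. EZH2 was in turn lower in shE2F1, by less than 2-fold, at 121 and 137 CPM. That change was -0.37 ± 0.12 (SE) (edgeR adjusted p = 0.0227), so that shE2F1 too had less of both transcripts. The study reported the other direction, an increase of EZH2 after E2F1 knockdown, at the level of protein, which these libraries do not measure.

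The sequences before the RefSeq start of 4 of the genes are shown because they are the members called higher (adjusted p under 0.01 and over 2-fold) in shEZH2 than in shE2F1 that have an entry in the RefSeq promoter table. Of the 10 genes, 9 had an entry there (build GRCh38.p14), and the 250 bases before the annotated start were read. For NOTCH2 they lie inside the gene as GENCODE draws it, whose 5′ end is at 120100779. They were searched on both strands for the core of the RBPJ site, TGGGAA, and for 4 forms of the E2F site, TTTCCCGC, TTTCGCGC, TTTGCCGC and TTTGGCGC. Matches are in capitals, and no match overlapped another.
HES1, GRCh38.p14 chr3:194135898-194136147, plus strand: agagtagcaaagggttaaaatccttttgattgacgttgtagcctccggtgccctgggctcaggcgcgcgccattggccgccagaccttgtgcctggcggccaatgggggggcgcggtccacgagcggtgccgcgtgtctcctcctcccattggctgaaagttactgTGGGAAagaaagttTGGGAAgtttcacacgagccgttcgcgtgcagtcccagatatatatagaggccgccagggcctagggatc
NOTCH2, GRCh38.p14 chr1:120069663-120069912, minus strand: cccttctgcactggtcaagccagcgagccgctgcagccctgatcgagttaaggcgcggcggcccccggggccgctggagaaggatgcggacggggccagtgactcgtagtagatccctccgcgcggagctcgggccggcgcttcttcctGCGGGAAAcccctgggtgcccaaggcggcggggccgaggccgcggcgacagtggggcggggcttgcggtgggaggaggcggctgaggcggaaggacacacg
NRARP, GRCh38.p14 chr9:137302272-137302521, minus strand: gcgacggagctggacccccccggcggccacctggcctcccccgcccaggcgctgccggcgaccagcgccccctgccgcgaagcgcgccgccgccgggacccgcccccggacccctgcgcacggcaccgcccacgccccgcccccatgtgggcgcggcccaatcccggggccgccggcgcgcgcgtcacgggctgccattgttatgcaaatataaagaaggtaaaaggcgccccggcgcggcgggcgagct
NEURL1B, GRCh38.p14 chr5:172641013-172641262, plus strand: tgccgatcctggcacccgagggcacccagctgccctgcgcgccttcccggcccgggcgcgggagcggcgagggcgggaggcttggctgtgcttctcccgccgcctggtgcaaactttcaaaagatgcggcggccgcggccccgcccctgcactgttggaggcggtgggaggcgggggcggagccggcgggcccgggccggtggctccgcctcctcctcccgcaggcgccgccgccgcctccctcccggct
HES1 held the RBPJ core 2 times on its own strand, starting 84 and 70 bases before the start, and no E2F form. At least 1 RBPJ core was found in 20.8% of the 35116 promoters of the table, and 2 or more in 2.90%. NOTCH2 held the E2F form TTTCCCGC on the opposite strand, 101 to 94 bases before the RefSeq start, a form set found in 2.79% of the promoters. NRARP, NEURL1B and the other 5 promoters (NOTCH1, NOTCH3, JAG1, JAG2 and DLL4) held neither in this window. A match of letters is a description of the sequence and not a site of binding.

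NOTCH2 and JAG1 were the most abundant of the 10 transcripts per length in every group. In Control shRNA the mean TPM of 2 libraries was 49.8 for NOTCH2, 32.2 for JAG1, 12.8 for NOTCH1, 8.85 for HES1, 5.30 for NEURL1B, 4.91 for JAG2, 1.06 for NOTCH3, 0.99 for NRARP, 0.21 for HEY1 and 0.06 for DLL4. In that order the libraries of NEURL1B and JAG2 overlapped, as did those of NOTCH3 and NRARP and those of HEY1 and DLL4, and the other neighbours did not. JAG1 stood above NOTCH2 in shE2F1, at 51.4 against 44.7 TPM, with no overlap of the libraries, and in GSK126, at 64.2 against 54.2 TPM, where the libraries overlapped. HES1 stood directly after NOTCH2 and JAG1 in DMSO and in GSK126, at 19.9 and 29.5 TPM, above NOTCH1. DLL4 was at the limit of detection, with 0 to 11 counts per library and at most 0.30 TPM, and passed the filter on low counts in no fit.

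**Figure D1:**
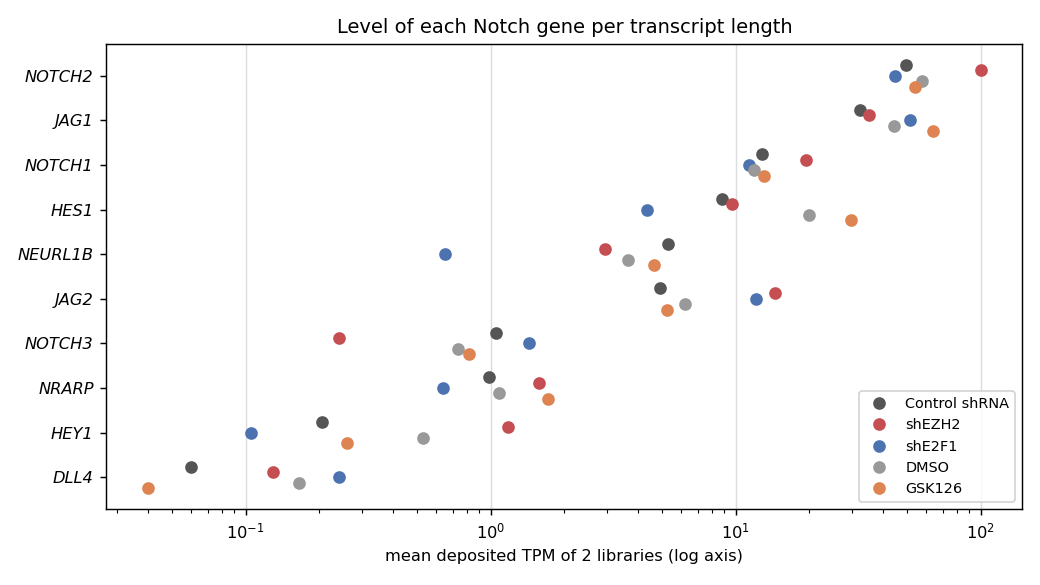
Mean deposited TPM of the 2 libraries of each group (log axis) for the 10 genes, ordered by their level in Control shRNA, with 1 colour per group. NOTCH2 and JAG1 lead in every group, NEURL1B reaches from 0.65 TPM in shE2F1 to 5.30 TPM in Control shRNA, and DLL4 and HEY1 lie at the bottom in Control shRNA.

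The shEZH2 libraries were set against Control shRNA to ask which Notch transcripts change when EZH2 is depleted. The receptor genes went in different directions: NOTCH3 and the ligase gene NEURL1B fell, and NOTCH2 and the ligand gene JAG2 rose by less than 2-fold. Of the 10 genes 9 were tested. HEY1 passed the filter on low counts through the shEZH2 libraries alone, so that it is left out of the counts and medians of the knockdown comparisons. Of the other 8 members 2 were called, both lower, where 18.2% of all 15373 genes tested were called and 10.7% were called lower. Without the fold criterion, 4 of the 8 had an adjusted p under 0.05, against 55.6% of all genes. Their median change was 0.16, and that of all genes -0.02. The 2 groups of libraries did not overlap for 6 of the 8, against 77.6% of all genes.

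NOTCH3 (ENSG00000074181, GRCh38 chromosome 19, 15159038 to 15200995, on the minus strand) stood at 3.34 and 3.42 CPM in Control shRNA and at 0.452 and 0.921 CPM in shEZH2. Both knockdown libraries lay under both controls, a change of -2.26 ± 0.38 (SE), or 4.77-fold lower (edgeR adjusted p = 0.000499). The counts behind these values were 63 and 57 against 6 and 16, and the change was -1.88 to -2.88 when 1 library was left out. NOTCH2 (ENSG00000134250, chromosome 1, 119911553 to 120100779, on the minus strand) stood at 381 and 358 CPM in Control shRNA and at 630 and 723 CPM in shEZH2. The groups were far apart, and the change of 0.86 ± 0.10 (SE) had edgeR adjusted p = 3.31e-05, under the 2-fold requirement, and was 0.55 after GC and length correction (a regression of each library on GC content and transcript length). Of the 50-base stretches of NOTCH2, 8.69% also occur in other annotated genes, above all in the near-identical partial copy NOTCH2NLC. NOTCH2NLA, the most abundant of these copies, stood at 37.5 and 34.4 CPM in Control shRNA and at 47.2 and 50.9 CPM in shEZH2, and the posterior SD that RSEM gave for the division of reads was at most 5.71 counts for NOTCH2. NOTCH1 (ENSG00000148400, chromosome 9, 136494433 to 136546048, on the minus strand) stood at 71.6 and 75.1 CPM against 90.0 and 95.2 CPM in shEZH2. The libraries did not overlap, but the change of 0.32 ± 0.13 (SE) had edgeR adjusted p = 0.0562.

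Of the ligands, JAG2 (ENSG00000184916, chromosome 14, 105140982 to 105168824, on the minus strand) stood at 17.8 and 11.9 CPM in Control shRNA and at 24.2 and 31.5 CPM in shEZH2. Its change was 0.89 ± 0.19 (SE) (edgeR adjusted p = 0.00258), just under the 2-fold requirement, which it passed at 1.24 after GC and length correction, at 1.21 without Control shRNA replicate 1 and at 1.06 without shEZH2 replicate 1. In the deposited TPM, which RSEM divides by an effective length estimated in each library, the log2 ratio of the group means was 1.56. Of the 50-base stretches of JAG2, 6.53% lie in an unnamed gene that overlaps it on the same strand, which had at most 6.03% of the CPM of JAG2 in any library. JAG1 (ENSG00000101384, chromosome 20, 10637684 to 10673999, on the minus strand) stood at 122 and 117 CPM in Control shRNA and at 124 and 115 CPM in shEZH2. Its libraries overlapped, and its change was -0.02 ± 0.09 (SE).

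NEURL1B (ENSG00000214357, chromosome 5, 172641263 to 172691540, on the plus strand) fell from 24.6 and 22.0 CPM to 12.6 and 10.3 CPM in shEZH2. Both knockdown libraries lay well under both controls, with a change of -1.04 ± 0.16 (SE) and an edgeR adjusted p of 0.000353. The change lies close to the 2-fold line and was under it at -0.96 without Control shRNA replicate 1, at -0.88 without shEZH2 replicate 2 and at -0.89 after GC and length correction. HES1 (ENSG00000114315, chromosome 3, 194136148 to 194138732, on the plus strand) stood at 9.32 and 7.62 CPM in Control shRNA and at 7.15 and 9.78 CPM in shEZH2, where the groups overlapped, with a change of -0.01 ± 0.23 (SE). NRARP (ENSG00000198435, chromosome 9, 137299631 to 137302271, on the minus strand) stood at 1.69 and 1.80 CPM against 2.26 and 2.65 CPM in shEZH2, a change of 0.48 ± 0.32 (SE) (edgeR adjusted p = 0.226) on 30 to 46 counts per library. HEY1 (ENSG00000164683, chromosome 8, 79762371 to 79767857, on the minus strand) had 0 and 8 counts in Control shRNA and 17 and 29 in shEZH2, or 0 and 0.480 CPM against 1.28 and 1.67 CPM. Its change of 2.65 ± 0.80 (SE) had edgeR adjusted p = 0.0160. It was called with no filter on low counts (2.64) and without Control shRNA replicate 2, where no HEY1 read was left in the controls and the fitted change is no measure of size.

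**Figure D2:**
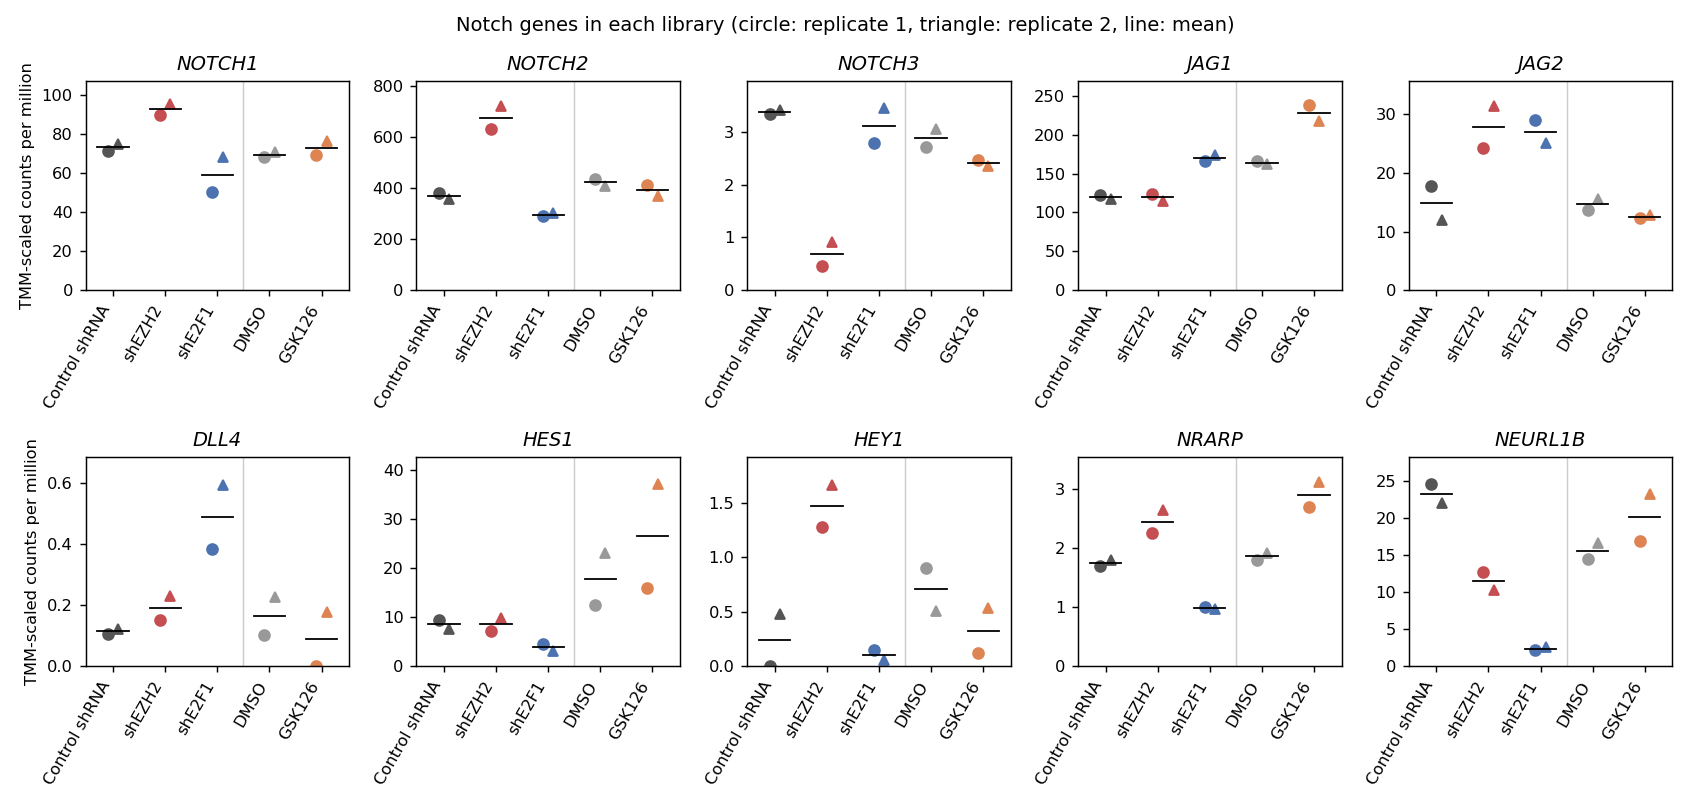
TMM-scaled CPM of the 10 genes in each of the 10 libraries, 1 panel per gene with its own axis from 0, with circles for replicate 1, triangles for replicate 2 and a line at the mean of the group. In shEZH2 NOTCH3 lies under 1 CPM and NOTCH2 at 630 and 723 CPM, and in shE2F1 both NEURL1B libraries lie under 3 CPM.

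The same question was asked of E2F1 in shE2F1 against the same control libraries. NEURL1B fell 9.99-fold and HES1 fell by a little more than 2-fold, and the ligand genes JAG1 and JAG2 rose by less than 2-fold. Of the same 8 members 2 were called, both lower, where 11.6% of all genes tested were called and 5.96% were called lower. Without the fold criterion, 5 of them had an adjusted p under 0.05, against 44.7% of all genes. Their median change was -0.32, and that of all genes -0.00049. The libraries of the 2 groups did not overlap for 7 of the 8, against 74.3% of all genes.

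NEURL1B stood at 24.6 and 22.0 CPM in Control shRNA and at 2.11 and 2.59 CPM in shE2F1, the lowest of all 5 groups. Its change was -3.32 ± 0.19 (SE), 9.99-fold lower (edgeR adjusted p = 1.23e-06), and it ran from -3.18 to -3.47 when 1 library was left out. An unnamed gene on the opposite strand within NEURL1B had at most 8.05 counts in any library. HES1 fell from 9.32 and 7.62 CPM to 4.45 and 3.07 CPM, a change of -1.17 ± 0.25 (SE) (edgeR adjusted p = 0.00294). Both knockdown libraries lay under both controls, on 93 and 57 counts. The call was lost without Control shRNA replicate 1 (-1.02, edgeR adjusted p = 0.0186), without shE2F1 replicate 2 (-0.94, 0.0407) and in a fit of all 10 libraries (-1.16, 0.0398). NRARP stood at 1.01 and 0.970 CPM in shE2F1, under both controls, with a change of -0.82 ± 0.34 (SE) and an edgeR adjusted p of 0.0735 on 18 to 32 counts per library. HEY1 had 3 and 1 counts, and its change of -1.13 ± 1.18 (SE) took the other sign, 3.95, without Control shRNA replicate 2, the only control library with a HEY1 read.

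JAG1 stood at 166 and 174 CPM in shE2F1, above both controls at 122 and 117 CPM, a change of 0.50 ± 0.09 (SE) (edgeR adjusted p = 0.00116). JAG2 stood at 29.0 and 25.1 CPM in shE2F1 against 17.8 and 11.9 CPM, a change of 0.85 ± 0.19 (SE) (edgeR adjusted p = 0.00446), and passed 2-fold at 1.17 without Control shRNA replicate 1. Both canonical ligands that passed the filter on low counts were thus higher at an adjusted p under 0.01, by less than 2-fold in the main fit. In the deposited TPM the log2 ratio of the group means was 0.68 for JAG1 and 1.31 for JAG2. DLL4 had 8 and 11 counts in shE2F1 and 2 to 4 counts in the other knockdown libraries, and was not tested. Among the receptors, NOTCH2 stood at 289 and 302 CPM, under both controls, a change of -0.33 ± 0.09 (SE) (edgeR adjusted p = 0.0159). NOTCH1 stood at 50.1 and 68.4 CPM, a change of -0.32 ± 0.13 (SE) (edgeR adjusted p = 0.0738), and NOTCH3 at 2.78 and 3.45 CPM, which overlapped the controls, with a change of -0.13 ± 0.31 (SE).

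**Figure D3:**
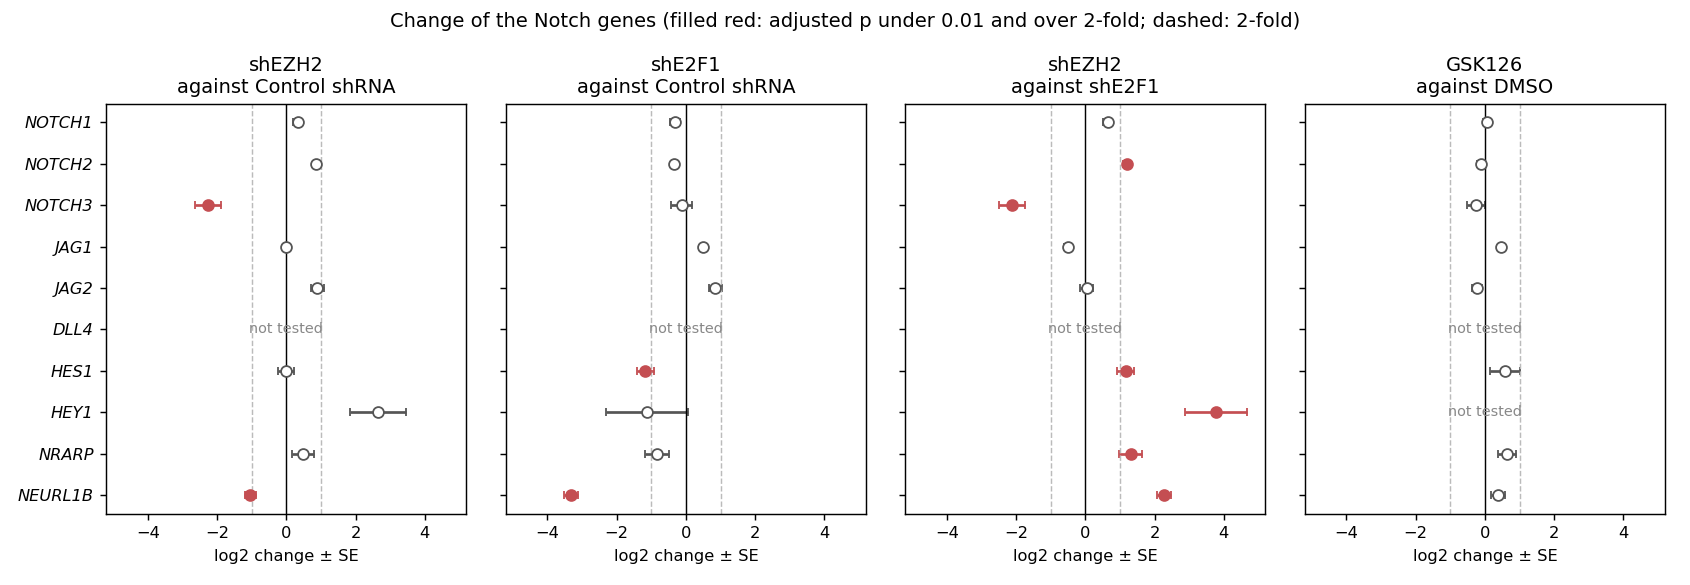
Log2 change ± SE of each gene in the 4 comparisons, with filled red points for an adjusted p under 0.01 and a change over 2-fold and dashed lines at 2-fold. In the contrast of the knockdowns 6 genes are called, where 23.3% of all genes were. HEY1 is among them, which passed the filter on low counts through shEZH2 alone and is left out of the counts in the text. In each knockdown 2 are called, where 18.2% of all genes were in shEZH2 and 11.6% in shE2F1, and under GSK126 none.

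Because a call in 1 knockdown and not in the other does not show that they differ, shEZH2 was tested against shE2F1 directly. The HES1 and NRARP target genes, NEURL1B and NOTCH2 were higher in shEZH2 than in shE2F1, and NOTCH3 was lower. That is 5 of the 8 members counted, 4 of them higher, where 23.3% of all genes were called, 10.4% higher and 12.9% lower. Because the members were chosen with earlier results known, this share is a description of them and not a test. The libraries did not overlap for 7 of the 8, against 82.5% of all genes, and their median change was 0.90 against -0.02 for all genes.

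The difference was 2.28 ± 0.20 (SE) for NEURL1B (edgeR adjusted p = 4.50e-06). It was 1.19 ± 0.10 (SE) for NOTCH2 (edgeR adjusted p = 2.56e-06), and 0.80, under 2-fold, after GC and length correction. NOTCH3 differed by -2.13 ± 0.38 (SE) (edgeR adjusted p = 0.000613). These 3 were called whichever library was left out. HES1 differed by 1.17 ± 0.25 (SE) (edgeR adjusted p = 0.00203), and lost the call without shEZH2 replicate 2 (0.92), without shE2F1 replicate 2 (0.93) and in the fit of all 10 libraries (1.17, edgeR adjusted p = 0.0299). NRARP differed by 1.31 ± 0.34 (SE) (edgeR adjusted p = 0.00658), and HEY1, which was testable only through shEZH2, by 3.78 ± 0.90 (SE) (edgeR adjusted p = 0.00398). Both rest on few counts and lost the call when any 1 of the 4 libraries was left out, at 1.19 to 1.41 for NRARP and 3.30 to 4.60 for HEY1, and NRARP also lost it with DESeq2. JAG1 was lower in shEZH2 by less than 2-fold, at -0.52 ± 0.09 (SE) (edgeR adjusted p = 0.000534), and NOTCH1 was higher, at 0.64 ± 0.13 (SE) (edgeR adjusted p = 0.00167). For JAG2, which rose in both knockdowns, the difference between them was 0.04 ± 0.19 (SE).

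The GSK126 libraries were set against DMSO to ask whether the Notch genes respond when EZH2 is inhibited rather than depleted. No member was called of the 8 tested, with edgeR or with DESeq2, and of all 14632 genes tested 0% were called by edgeR (DESeq2 called 10 higher and 1 lower). At an unadjusted p under 0.05, 1 member passed (JAG1) and 3.94% of all genes. The libraries of the groups did not overlap for 5 of the 8 members, against 28.4% of all genes. The median change of the members was 0.22, and that of all genes -0.01.

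JAG1 stood at 166 and 163 CPM in DMSO and at 239 and 218 CPM in GSK126. Both treated libraries lay above both controls, and the change of 0.47 ± 0.11 (SE) had an unadjusted p of 0.00405 and an edgeR adjusted p of 0.929. HES1 stood at 12.4 and 23.0 CPM in DMSO and at 15.9 and 37.1 CPM in GSK126, where replicate 2 of each group was higher than replicate 1 and the groups overlapped. Its change was 0.59 ± 0.43 (SE). Leaving out DMSO replicate 2 or GSK126 replicate 1 raised it to 1.08 or 1.07 and past the threshold, and leaving out GSK126 replicate 2 turned it to -0.15. Taken between libraries of the same replicate number, the log2 difference of HES1 was 0.35 for replicate 1 and 0.69 for replicate 2. NRARP stood at 1.80 and 1.92 CPM in DMSO and at 2.69 and 3.12 CPM in GSK126, a change of 0.64 ± 0.27 (SE) with an unadjusted p of 0.0508, and 0.58 and 0.70 within the replicate numbers. NEURL1B stood at 14.4 and 16.5 CPM in DMSO and at 16.9 and 23.3 CPM in GSK126, a change of 0.38 ± 0.19 (SE). With the replicate number as a block, the edgeR adjusted p was 2.06e-12 for JAG1 (0.47), 3.82e-05 for HES1 (0.56) and 0.00841 for NEURL1B (0.37). It was 0.132 for NRARP (0.64), and each of these changes stayed under 2-fold. That fit had 1 residual degree of freedom and called 53 of all genes higher and 15 lower. The labels do not say what a replicate number marks.

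Of the members tested, the receptors and JAG2 changed least under GSK126, though in CPM NOTCH3 and JAG2 were lower in both GSK126 libraries than in both DMSO libraries. In the deposited TPM the NOTCH3 libraries of the groups overlapped. NOTCH1, NOTCH2, NOTCH3 and JAG2 had changes of 0.07 ± 0.12, -0.12 ± 0.11, -0.26 ± 0.25 and -0.22 ± 0.14 (SE), and the edgeR adjusted p was 1.00 for each. HEY1 had 18 and 9 counts in DMSO and 2 and 9 in GSK126, and DLL4 had 2 and 4 against 0 and 3, and neither passed the filter. In CPM and within both replicate numbers JAG1, HES1, NRARP, NEURL1B and NOTCH1 were higher in GSK126, NOTCH1 by only 0.03 and 0.11 on the log2 scale, and NOTCH2, NOTCH3 and JAG2 were lower.

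**Figure D4:**
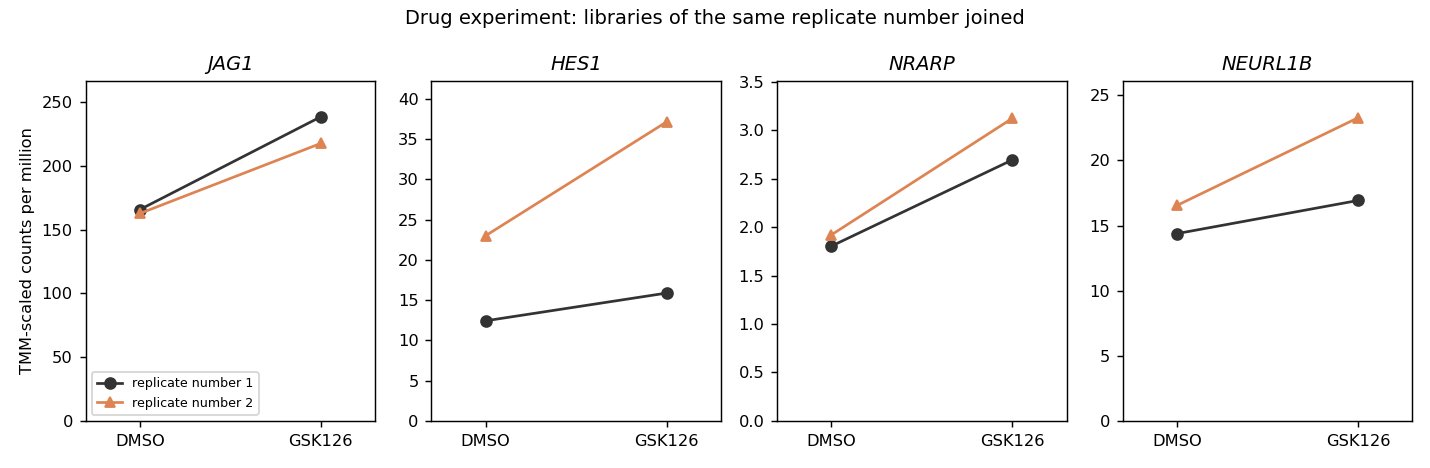
TMM-scaled CPM of JAG1, HES1, NRARP and NEURL1B in the 4 drug libraries, with lines joining the DMSO and GSK126 libraries of the same replicate number. Each line rises, from 12.4 to 15.9 and from 23.0 to 37.1 CPM for HES1, and for HES1 the lines lie apart by more than the rise of replicate 1.

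Whether depleting EZH2 and inhibiting it had different effects was tested as the shEZH2 change minus the GSK126 change in a fit of all 10 libraries. The 2 experiments also differed in virus and selection, which cannot be told apart from this contrast. Of the 9 members tested 3 were called, NOTCH3 and NEURL1B lower and JAG2 higher, where 13.8% of 15773 genes were called, 5.13% higher and 8.67% lower. HEY1 was among the 9 and was not called. It was over the cutoff of the low-count filter in only 3 libraries, of shEZH2 and DMSO. The difference was -1.99 ± 0.46 (SE) for NOTCH3, -1.41 ± 0.26 (SE) for NEURL1B and 1.13 ± 0.27 (SE) for JAG2, with edgeR adjusted p of 0.00515, 0.00134 and 0.00709. The call on NEURL1B was lost without shEZH2 replicate 2 alone (-1.26, edgeR adjusted p = 0.010). The calls on NOTCH3 and JAG2 were lost in most fits that left out a library, at -1.62 to -2.02 for NOTCH3 and 0.86 to 1.21 for JAG2, with edgeR adjusted p of at most 0.0402, and that on NOTCH3 also with DESeq2 (-1.98, adjusted p = 0.0108). NOTCH2 differed by 0.99 ± 0.15 (SE), just under 2-fold (edgeR adjusted p = 0.000510). It passed 2-fold with DESeq2 and with its size factors in edgeR (1.02 in both) and without Control shRNA replicate 1, shEZH2 replicate 1, DMSO replicate 2 or GSK126 replicate 1 (1.03 to 1.08), and was 0.69 after GC and length correction. The difference was -0.48 ± 0.14 (SE) for JAG1 (edgeR adjusted p = 0.0189).

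The rest of the pathway was followed through 60 further genes, which with the 10 members form 9 lists by role. These lists too were chosen with earlier results of these data known. In shEZH2, 51 of the 60 were tested and 12 (23.5%) were called, 5 higher and 7 lower, against 18.2% of all genes. In shE2F1, 5 of 51 (9.80%) were called, all lower, against 11.6% of all genes and 5.96% called lower. In the direct contrast 18 of 51 (35.3%) were called, 12 higher and 6 lower, against 23.3%. Under GSK126 0 of 50 were called by edgeR, with 4 at an unadjusted p under 0.05 (3.94% of all genes), 0 at an adjusted p under 0.05, and 0 called by DESeq2. The median changes of the 51 were 0.06 in shEZH2 and 0.03 in shE2F1, close to those of all genes.

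Among the enzymes that place sugars on the receptor, LFNG, a fringe glycosyltransferase, fell in both knockdowns. It stood at 24.8 and 20.5 CPM in Control shRNA, at 4.22 and 6.10 CPM in shEZH2 and at 2.25 and 3.93 CPM in shE2F1, changes of -2.13 ± 0.25 (SE) and -2.89 ± 0.26 (SE). RFNG, another fringe, changed by -1.53 in shEZH2 and was under 2-fold at -0.99 after GC and length correction. POGLUT1, the O-glucosyltransferase of the receptor, fell by 1.23 on the log2 scale in shE2F1. Of the 5 glycosylation genes 2 were called in each knockdown, all lower, where 10.7% of all genes were called lower in shEZH2 and 5.96% in shE2F1.

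In the nuclear activation list 3 of 7 genes were called in shEZH2, all higher (7.52% of all genes were called higher), and 0 of 7 in shE2F1 by edgeR or DESeq2, where 3 passed an adjusted p under 0.05 (44.7% of all genes) and all 3 were lower. MAML3, a Mastermind coactivator, stood at 1.85 and 2.10 CPM in Control shRNA and at 8.13 and 12.5 CPM in shEZH2, a change of 2.38 ± 0.27 (SE). RBPJ itself stood at 106 and 118 CPM against 225 and 233 CPM, a change of 1.02 ± 0.09 (SE), close to the 2-fold line. KAT2B, an acetyltransferase, rose by 1.25. These 2 fall outside the 8 largest changes of the list genes and are named because they complete the count. Their shEZH2 changes were not followed through the fits without a library or with GC and length correction. In the shEZH2 change minus the GSK126 change, that correction took RBPJ from 1.18 to 0.83 and KAT2B from 1.13 to 0.92. KAT2B also lost that call in most fits that left out a library. In the nuclear repression list 0 of 10 genes tested were called in shEZH2 by edgeR or DESeq2, with 2 at an unadjusted edgeR p under 0.05, where 18.2% of all genes were called, and 1 of 10 in shE2F1, where 11.6% were, HDAC1, a histone deacetylase, which fell from 170 and 179 CPM to 86.6 and 83.4 CPM, a change of -1.04 ± 0.09 (SE).

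Of the 9 genes of receptor cleavage, ADAM17, a metalloprotease, rose by 1.26 and PSENEN, a γ-secretase subunit, fell by 1.04, both log2 changes in shEZH2. ADAM17 was under 2-fold at 0.90 after GC and length correction. FURIN, the protease of receptor maturation, fell from 96.8 and 97.5 CPM to 37.1 and 36.5 CPM in shE2F1, a change of -1.41 ± 0.09 (SE), and stood at 140 and 153 CPM in shEZH2. Of 3 noncanonical ligands tested, DLK2 fell in both knockdowns, from 7.25 and 6.18 CPM to 3.09 and 2.24 CPM in shEZH2 and to 1.15 and 0.970 CPM in shE2F1. MFAP2, a microfibril protein, rose by 1.52 in shEZH2, and lost the call without shEZH2 replicate 2 (0.96) and without Control shRNA replicate 2 (1.39). The DLK2 call in shEZH2 was lost without Control shRNA replicate 1 (-1.24), without shEZH2 replicate 2 (-1.12) and after GC and length correction (-0.93).

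Of the receptors, NOTCH4 was also called in shEZH2, at -2.59 ± 0.68 (SE) on 1 and 5 counts, and lost the call when Control shRNA replicate 1, either shEZH2 library or either shE2F1 library was left out, with DESeq2, after GC and length correction (-2.35) and in a fit of the 4 libraries alone (-2.60). In the list of HES, HEY and other targets, 6 of 10 genes were tested besides HEY1 and 1 was called in each knockdown, HES2 lower in shEZH2 (10.7% of all genes) and HES1 lower in shE2F1 (5.96%). HES2 stood at 3.81 and 1.86 CPM in Control shRNA and 1.05 and 0.691 CPM in shEZH2, a change of -1.75 ± 0.43 (SE), and lost the call without Control shRNA replicate 1 (-1.13), shEZH2 replicate 2 (-1.43) or shE2F1 replicate 1 (-1.74) and after GC and length correction (-1.49). In the direct contrast 5 of the 6 were called, against 23.3% of all genes, HES1 and NRARP higher in shEZH2 and HES2, HES4 and HES6 lower. Of 13 genes of endocytosis and ubiquitin, NEURL1B and EPN1, an endocytic adaptor, were called lower in shEZH2 (10.7% of all genes), and NEURL1B alone in shE2F1 (5.96%). NEURL1, the paralog of NEURL1B, stood at 1.91 and 1.02 CPM in Control shRNA, at 1.13 and 1.15 CPM in shEZH2 and at 3.21 and 3.56 CPM in shE2F1. Its difference between the knockdowns was -1.57 ± 0.37 (SE), the opposite sign to that of NEURL1B, and the call was lost with DESeq2, after GC and length correction (-1.23) and when any 1 of the 4 libraries was left out (-1.49 to -1.64).

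**Figure D5:**
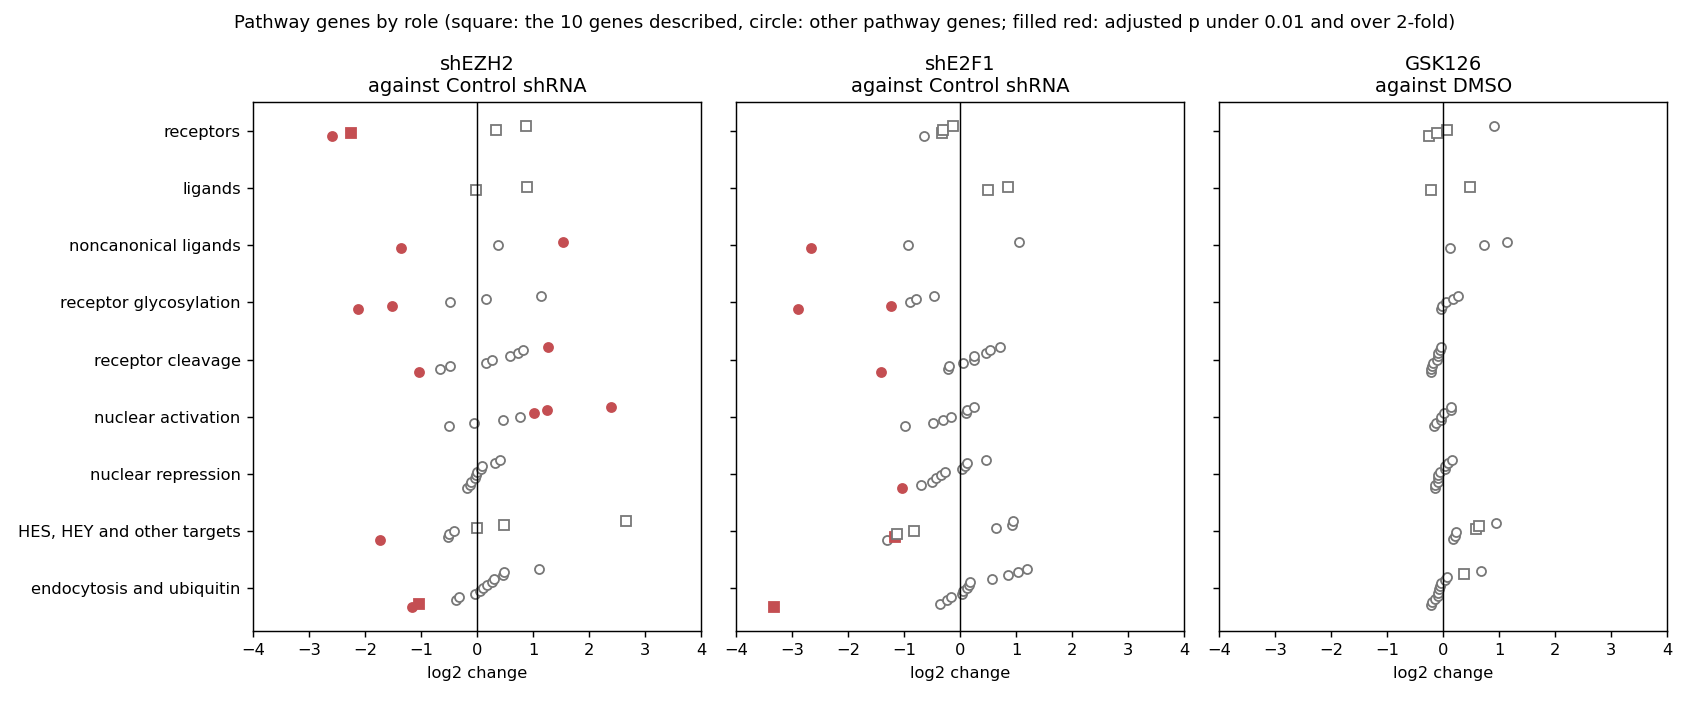
Log2 change of the pathway genes tested in shEZH2, shE2F1 and GSK126, in rows by role, with squares for the 10 genes described, circles for the others and filled red symbols for an adjusted p under 0.01 and a change over 2-fold. In shEZH2 the called genes lie on both sides of 0, in shE2F1 all 7 lie below 0, and under GSK126 none is filled.

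The genes whose levels followed HES1, NRARP and NEURL1B most closely were found by Pearson's correlation of log2 CPM over the 10 libraries, which share depth, controls and group structure, among 9634 or 9635 genes with a mean of at least 10 CPM. For NEURL1B they were ARHGAP22, LOXL1 and EPHB2 at r = 0.99 each. For NRARP they were PAK1, AKAP12 and PTPRU at r = 0.97, 0.97 and 0.96, and for HES1 they were HEBP2, AKR1B1 and PGD at r = 0.96, 0.94 and 0.93. EPHB2, an ephrin receptor, had mean levels of 91.5 CPM in Control shRNA, 58.4 CPM in shEZH2, 19.5 CPM in shE2F1, 82.7 CPM in DMSO and 91.0 CPM in GSK126. It was chosen by its correlation with NEURL1B, so that their shared order of the knockdown groups is no separate result. PTPRU, a receptor tyrosine phosphatase, stood at 15.7, 30.8, 2.93, 20.3 and 34.6 CPM in the same groups, where NRARP stood at 1.75, 2.45, 0.988, 1.86 and 2.91 CPM.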

How the data were processed

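The deposited files hold RSEM expected counts and TPM (abundance scaled by transcript length) for 62703 Ensembl genes per library. Per the methods of the study and the submitters' processing notes, the authors mapped reads of a strand-specific poly(A) kit to hg38 with STAR and an Ensembl release 108 annotation and estimated abundance with RSEM 1.3.1. The STAR version differs between these sources. Whether counting used strand is not given in the sources used here. RSEM divides reads that map to several genes between them, and the deposited posterior SD of the expected count was used only to describe that division. Of the identifiers, 62625 (99.9%) were found in GENCODE release 44 (GRCh38), which gave symbols and coordinates.

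Expected counts were rounded and tested in R 4.3.3 with the quasi-likelihood F-test of edgeR 4.0.16 (filterByExpr, TMM, Benjamini-Hochberg over every gene in the fit). Separate fits took the 6 knockdown and the 4 drug libraries, and a fit of all 10 gave the difference of effects. The SE is the log2 change divided by the square root of F. Levels in CPM share 1 TMM scale over the 10 libraries, and TPM entered no test. The members and lists were chosen with earlier results of these data known. Named besides the members were EZH2, E2F1 and, per comparison, at most 8 called list genes with the largest change. RBPJ, KAT2B, PSENEN and EPN1 in shEZH2, and HES4 and HES6 between the knockdowns, fall outside these and were named to complete the count of their list. Their changes in those comparisons were not followed through the fits without a library or with GC and length correction. Of the cell type markers, the leukocyte list is not reported here. The pipeline was tested on simulated data. The alternatives were DESeq2 1.42.0, its size factors in edgeR, no filter, a mean of at least 50 counts, an adjusted p under 0.05, other sets of libraries, leaving out each library, the replicate number as a block, and a spline correction (5 degrees of freedom) for GC content and length.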

Additional observations from a re-analysis of the deposited data

Results flagged for a closer look

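The effect of shEZH2 minus the effect of GSK126 passed the test of the difference for 3 of the 9 members tested, with edgeR's adjusted p under 0.01 and a difference over 2-fold. Of all genes tested 13.8% passed. The difference was -1.99 ± 0.46 (SE) for NOTCH3, -1.41 ± 0.26 (SE) for NEURL1B and 1.13 ± 0.27 (SE) for JAG2. The calls on NOTCH3 and JAG2 were lost in most fits that left out a library, and that on NOTCH3 also with DESeq2. The call on NEURL1B was lost without shEZH2 replicate 2 alone. NOTCH3 was lower in both shEZH2 libraries than in both Control shRNA libraries (0.452 and 0.921 against 3.34 and 3.42 CPM) and was also lower in both GSK126 libraries than in both DMSO libraries (2.46 and 2.36 against 2.71 and 3.05 CPM). In the deposited TPM the NOTCH3 libraries of GSK126 and DMSO overlapped, at 1.24 and 0.39 against 0.59 and 0.88 TPM. NEURL1B was lower in both shEZH2 libraries and higher in both GSK126 libraries than in their controls. JAG2 was higher in both shEZH2 libraries and lower in both GSK126 libraries than in their controls. Transduction and selection differ between the experiments and cannot be told apart from the difference between hairpin and inhibitor.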

How the results depend on the processing

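With 2 libraries per group, changes close to 2-fold and genes of few counts depended most on the processing, and depth limited HEY1, DLL4, NRARP and NOTCH3. Member counts here include HEY1. At an adjusted p under 0.05 whatever the fold, 5 of 9 members passed in shEZH2 and 5 of 9 in shE2F1, against 55.6% and 44.7% of all genes. In the difference of effects 6 of 9 passed, where 2670 genes passed higher and 3110 lower of 15773 tested. HEY1 was among those that passed in shEZH2 and in the difference. A mean of at least 50 counts, which removed NOTCH3, HEY1 and NRARP from the test, left 1 call in shEZH2 and 3 in shEZH2 against shE2F1, and the fit of all 10 libraries left 1 in shE2F1. Leaving out 1 library gave 1 to 3 called members in shEZH2, 1 to 2 in shE2F1, 3 to 6 in their contrast, 0 to 1 under GSK126 and 1 to 3 in the difference of effects. NEURL1B in shE2F1 was called in every alternative that tested it.

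Directions changed only for results with no call. HES1 in shEZH2, at -0.01, took 0.0089 with DESeq2, 0.012 with its size factors, 0.0016 with a mean of at least 50 counts, 0.0060 with the replicate block, 0.0078 in the fit of all 10 libraries, 0.074 with the correction for GC content and length and 0.088 with both. Without a library it ran from -0.24 to 0.19. NRARP in the difference of effects took 0.24 with the GC and length correction and 0.23 with the block added. In the deposited TPM the log2 ratio of the group means was 0.15 for NOTCH3 under GSK126, 0.45 for NOTCH3 in shE2F1 and 0.13 for JAG1 in shEZH2. The main changes of these were -0.26, -0.13 and -0.02. In fits without 1 library the ranges that crossed 0 were -0.080 to 0.054 for JAG1 in shEZH2, -0.29 to 0.021 for NOTCH3 and -2.18 to 3.95 for HEY1 in shE2F1, -0.15 to 0.22 for JAG2 between the knockdowns, and for HES1 -0.15 to 1.08 under GSK126 and -1.09 to 0.16 in the difference of effects.

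The replicate number was tried as a block. The deviations of same-numbered libraries correlated at r = 0.64 between DMSO and GSK126 and at 0.05, 0.04 and 0.21 between the knockdown groups, across 11919 genes, and the labels do not say what a number marks. With the block the members called stayed at 2, 2, 6, 0 and 3 in the 5 comparisons, and NOTCH4 lost its call in shEZH2 (-2.56, edgeR adjusted p = 0.0116). Under GSK126 the genes called went from 0 to 53 higher and 15 lower, on 1 residual degree of freedom, and JAG1 (0.47), HES1 (0.56), NEURL1B (0.37) and NOTCH2 (-0.12) had an adjusted p under 0.01, each under 2-fold.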
